A study of Drosophila melanogaster with 9 samples.

Results

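Muc12Ea (FBgn0052602) and Cht6 (FBgn0263132) are 2 of the 17024 gene IDs counted in an RNA immunoprecipitation from ovaries of Drosophila melanogaster. The pair was selected on measured values, because both genes had more reads in the immunoprecipitate than in the control IgG pulldown and the input. Their levels in IP against Input and in IP against IgG are therefore a description without a test. The levels in IgG against Input were tested, although the same libraries entered the selection. By these values Muc12Ea was 8.99-fold above Input but 1.85-fold above IgG, and Cht6 was 2.75-fold above Input and 3.00-fold above IgG.

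All flies had the genotype aramis::GFP::FLAG, so that the control pulldown and the input carried the tagged protein too, and ovaries were dissected 1 to 3 days after eclosion. IP libraries came from a pulldown with an antibody against FLAG, IgG libraries from a pulldown with control mouse IgG, and Input libraries from 10% of the lysate, with 3 libraries in each of the 3 groups. Poly(A) RNA was sequenced in every library. The series design text names Larp in place of aramis as the tagged protein, and the sample labels were followed here. The labels do not say which cells expressed the tagged protein, or whether libraries of different number came from separate flies, so that p-values measure only the spread between these libraries.

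Mucins are secreted or membrane-bound proteins whose long stretches of serine, threonine and proline carry dense O-linked sugars, which hold water and make gels and surface coats. Chitinases cleave chitin, the sugar polymer of insect cuticle, tracheal lining and the gut's peritrophic matrix. Many of them belong to glycoside hydrolase family 18, which has an acidic signature motif at the catalytic site. Both kinds of protein are made on the rough endoplasmic reticulum and are best known from epithelia that face a lumen or make cuticle.

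Muc12Ea lies on the X chromosome at chrX:14277735-14288161 on the plus strand (dm6 coordinates, Ensembl BDGP6 annotation). The annotation gives it 1 transcript of 4 exons and 10181 bases, which codes for 3321 residues. Serine, threonine and proline made up 53.1% of those residues, and threonine alone made up 34.1%. Among the 8262 tested genes with a predicted protein, only 4 had a higher share of these residues, and the median was 17.7%. A tandem repeat with a period of 39 bases, or 13 residues, covered 95.1% of the coding sequence (9475 of 9963 bases). The array held 239 units with at least 75% identity to the commonest one, in 60 different DNA versions that coded for 17 different peptides. The 4 commonest units are shown as examples of the repeat that makes up most of the coding sequence. They were read from the Release 6 reference genome (RefSeq), each at its first copy in the array, 5′ to 3′, and capitals mark the bases that differ from unit 1.
Unit 1: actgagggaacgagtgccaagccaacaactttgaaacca
Unit 2: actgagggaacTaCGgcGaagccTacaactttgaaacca
Unit 3: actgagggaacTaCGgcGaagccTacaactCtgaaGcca
Unit 4: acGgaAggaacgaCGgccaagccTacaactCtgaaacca
Unit 1 occurred in 50 exact copies, the first at chrX:14278339-14278377. Unit 2 occurred in 19 copies (first at chrX:14278495-14278533), unit 3 in 16 (first at chrX:14278534-14278572) and unit 4 in 13 (first at chrX:14278378-14278416).

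The repeat bears on how reads of Muc12Ea could be placed. Only 28.3% of its exonic 50-base words occurred once in the genome, whereas in the median tested gene all of them did, and the share was 48.2% for 75-base words and 66.2% for 100-base words. None of its words of these lengths was found outside the Muc12Ea locus, so that a read from the array can be assigned to several places in the gene but to no other gene. How the counting treated reads with several places is not given in the sources used here, and the level of Muc12Ea relative to other genes depends on it.

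Cht6 lies on the same chromosome at chrX:10016845-10050803 on the plus strand. The annotation gives 7 transcripts of 4678 to 14423 bases with 10 to 15 exons, and their exons together cover 16205 bases. The longest predicted protein has 4611 residues, of which 32.5% are serine, threonine or proline. All 7 predicted proteins carry the signature of family 18 at residue 145. The codons around it are shown because this motif is the signature of that family. They were read from the same genome at chrX:10030874-10030957, within 1 exon, and capitals mark the codons of the motif.
Cht6 catalytic motif: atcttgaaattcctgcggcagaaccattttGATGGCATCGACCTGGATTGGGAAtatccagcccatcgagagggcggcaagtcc
Cht6 also has mucin-like stretches, which it shares with Muc12Ea and which were not used to pick the pair. In residues 1087 to 1119 of the longest protein, 26 residues are serine, threonine or proline. The bases that code for them, at chrX:10034042-10034140, are shown as the densest example, with threonine codons in capitals.
Cht6 threonine-rich stretch: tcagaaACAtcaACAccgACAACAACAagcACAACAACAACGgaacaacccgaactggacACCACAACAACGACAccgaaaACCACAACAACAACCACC
In contrast to the Muc12Ea array, every 50-base word in the exons of Cht6 occurred once in the genome.

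**Figure D1:**
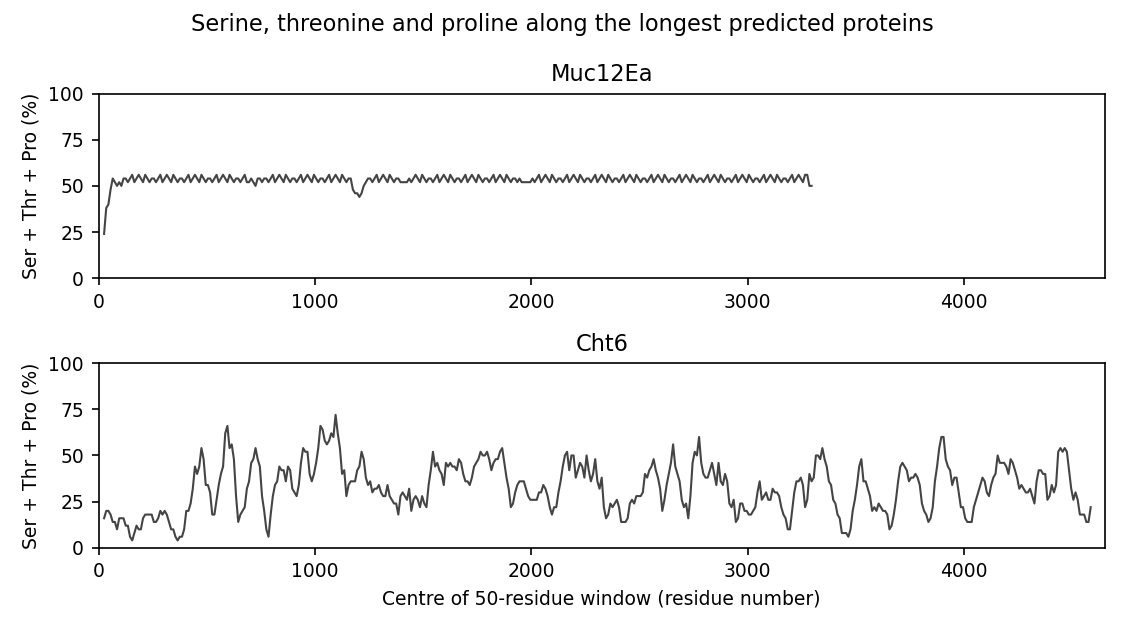
Share of serine, threonine and proline (percent, vertical axis) in windows of 50 residues along the longest predicted protein of Muc12Ea (top, 3321 residues) and Cht6 (bottom, 4611 residues), by residue number of the window centre. Muc12Ea is even and high along nearly its whole length, whereas Cht6 is low over the catalytic motif at residue 145 and has separate peaks, the highest near residues 1087 to 1119.

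Muc12Ea was among the genes with the most reads in the pulldowns. It had 2293, 2044 and 2010 CPM (TMM-scaled CPM, which sets each library's counts to a common total) in IP libraries 1, 2 and 3. In IgG libraries 1, 2 and 3 it had 1169, 1132 and 1135 CPM, and in Input libraries 1, 2 and 3 it had 237, 231 and 237 CPM. The 3 groups did not overlap, and the order IP, IgG, Input held at each replicate number. That IP lay above the others follows from the selection, and how many other genes separate this way was not counted. These levels rest on 87164 to 89783 counts per IP library, 30321 to 48448 per IgG library and 9123 to 11201 per Input library. By CPM the gene ranked 23rd to 27th of all IDs in the IP libraries, 89th to 107th in the IgG libraries and 817th to 854th in the Input libraries. Its length adds to these ranks. By CPM per kb of exon it ranked 239th to 303rd in IP, 619th to 676th in IgG and 3826th to 3883rd in Input. The replicates lay close together, with a coefficient of variation of 7.32% in IP, 1.76% in IgG and 1.47% in Input.

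Cht6 was far less abundant and showed another pattern. It had 20.6, 26.0 and 20.3 CPM in IP libraries 1, 2 and 3. In IgG libraries 1, 2 and 3 it had 4.57, 9.34 and 8.34 CPM, and in Input libraries 1, 2 and 3 it had 7.44, 9.33 and 7.59 CPM. All IP libraries lay above all others, a trait the gene was picked for, while the IgG and Input libraries overlapped. The counts ran from 782 to 1108 in IP, from 157 to 356 in IgG and from 322 to 368 in Input. IgG library 1 was the lowest of the 9: its 157 counts are 4.42 CPM of its unscaled total (Wilson 95% interval 3.78 to 5.16), against 8.19 CPM (7.23 to 9.27) in IgG library 2 and 7.73 (6.97 to 8.57) in IgG library 3. The interval of IgG library 1 did not overlap those of the other IgG libraries, so the scatter within IgG was larger than counting error, which is all that these intervals cover.

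**Figure D2:**
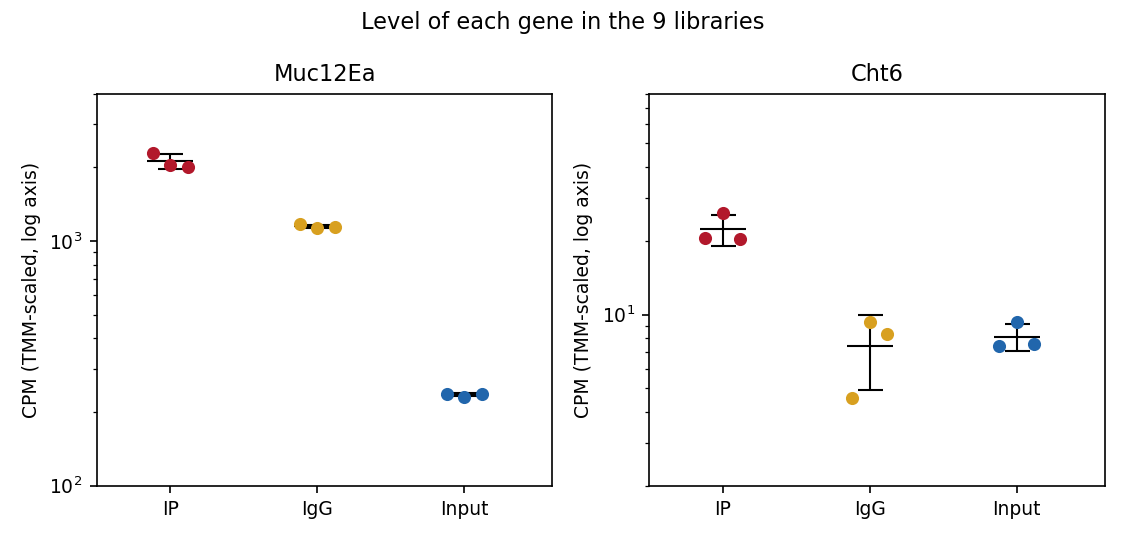
TMM-scaled CPM (log axis) of Muc12Ea (left) and Cht6 (right) in the 3 IP, 3 IgG and 3 Input libraries. Points are libraries 1, 2 and 3 from left to right, and black bars are the mean and SD. Muc12Ea falls into 3 separate levels, with IgG (1132 to 1169 CPM) between IP and Input, whereas IgG and Input overlap for Cht6. Both genes were picked for being highest in IP.

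Per kb of exon, the distance between the genes was large. Muc12Ea averaged 208 ± 15.2 CPM per kb in IP, 113 ± 1.98 in IgG and 23.1 ± 0.339 in Input, and Cht6 averaged 1.37 ± 0.198 CPM per kb in IP, 0.458 ± 0.155 in IgG and 0.501 ± 0.0648 in Input (SD, n = 3 each). On this scale Muc12Ea was 125 to 177 times as high as Cht6 in the IP libraries, 193 to 407 times in the IgG libraries and 39.5 to 50.7 times in the Input libraries. The ratio between the genes was thus widest in IgG and narrowest in Input. It is built from the values that chose the genes, and how many gene pairs separate this way was not counted. The 407 came from IgG library 1, where Cht6 had 157 counts. IgG libraries 2 and 3 gave 193 and 217, against 177 in IP library 1. With the longest transcript in place of all exons, the Cht6 levels were 1.54, 0.514 and 0.563 CPM per kb in IP, IgG and Input.

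For Muc12Ea the fitted log2 fold change (edgeR) was 3.17 ± 0.07 in IP over Input, or 8.99-fold, and 0.89 ± 0.07 in IP over IgG, or 1.85-fold (SE, 3 libraries a group). In same-numbered libraries the log2 ratio of IP to Input was 3.27, 3.14 and 3.08, and that of IP to IgG was 0.97, 0.85 and 0.82. Among the 8789 genes tested, this placed it 24th from the highest in IP over Input and 930th in IP over IgG. By fitted value the gene thus stood near the top of the first comparison but only in the upper part of the second. These ranks take no account of the SE. In IP over IgG 413 of the 8574 genes with a known length lay beyond a log2 fold change of 6 in either direction, against 9 in IP over Input. Muc12Ea ranked there below genes with no IgG count, such as kkv at 9.40 ± 2.22. In IgG over Input it was higher by 2.28 ± 0.05 on the log2 scale, or 4.87-fold (edgeR quasi-likelihood test, Benjamini-Hochberg adjusted p = 1.68e-05), and higher in 3 of 3 IgG libraries. Of the genes tested, 10.4% were called higher in IgG than in Input at an adjusted p under 0.05. On the log2 scale, 2.28 of the 3.17 between IP and Input was thus also measured between IgG and Input.

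For Cht6 the fitted log2 fold change was 1.46 ± 0.15 in IP over Input, or 2.75-fold, and 1.59 ± 0.37 in IP over IgG, or 3.00-fold. In same-numbered libraries the log2 ratio of IP to Input was 1.47, 1.48 and 1.42, which is a spread of 0.03 (SD). The ratio of IP to IgG was 2.17, 1.48 and 1.28, a wider spread of 0.47, with IgG library 1 giving the highest value. Cht6 was 448th from the highest of the tested genes in IP over Input and 672nd in IP over IgG, with the same limit to the ranks as for Muc12Ea. IgG and Input were not distinguishable for Cht6, with a log2 fold change of -0.13 ± 0.45 (edgeR quasi-likelihood test, adjusted p = 0.874), and 16.5% of the genes tested were called lower in IgG. Without IgG library 1 that value was 0.12. Whether the IgG change of Muc12Ea differed from that of Cht6 was not tested.

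**Figure D3:**
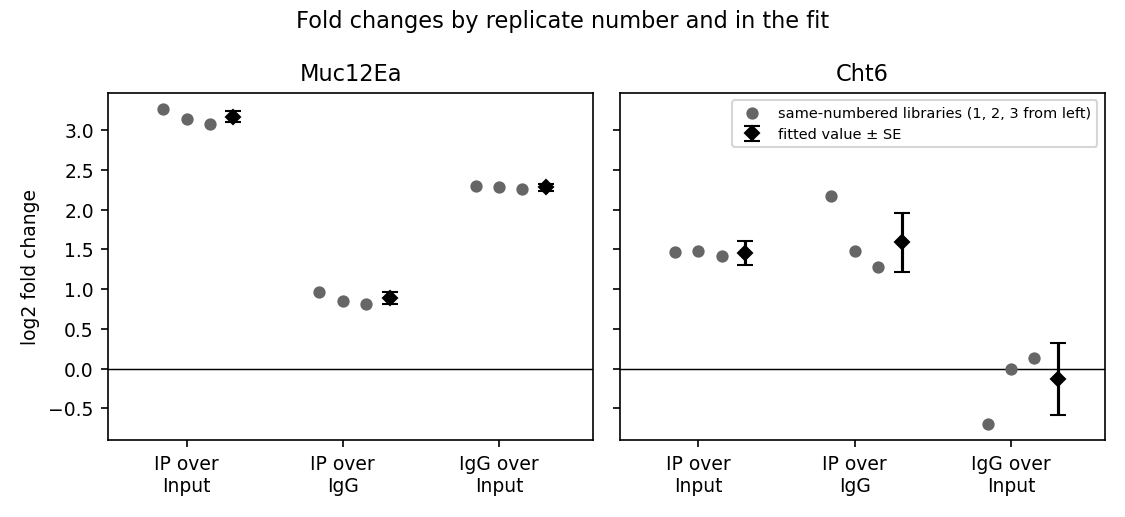
Log2 fold changes of Muc12Ea (left) and Cht6 (right) in IP over Input, IP over IgG and IgG over Input. Grey points are ratios between libraries 1, 2 and 3 of the same number, and black diamonds are the fitted values with their SE. Muc12Ea lies above 0 in all comparisons, at 2.28 in IgG over Input, and Cht6 scatters around 0 there.

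Both genes are long, and fold changes in IP moved with exon length across the tested genes. Exons of Muc12Ea were longer than those of 97.4% of the 8574 tested genes with an annotated length, and those of Cht6 were longer than 99.6%, against a median of 2093 bases. Of the 233 tested genes with at least 10 kb of exon, a limit set with the lengths of these genes known, 156 were called higher in IP than in Input (67.0%, against 28.7% of all genes tested), with a median log2 fold change of 0.84 against 0.01. In IP over IgG 67 of the 233 were called higher (28.8%, against 4.21%), with a median of 0.39 against 0.00. Within this group Muc12Ea ranked 3rd and Cht6 50th in IP over Input, and Cht6 ranked 13th and Muc12Ea 32nd in IP over IgG. Both genes were picked on these contrasts. In IgG over Input 56 of the 233 were called higher (10.4% of all genes tested were) and 30 lower (16.5%), with a median of 0.35 against -0.01, and Muc12Ea ranked 23rd and Cht6 169th. The medians of the long genes thus lay above those of all genes in each of the 3 comparisons. The part of length in the levels of the members was not tested beyond a correction for it. A loess curve corrected each library for exon length. With it the log2 fold change of Muc12Ea was 2.61 in IP over Input and 0.36 in IP over IgG. That of Cht6 was 0.60 and 1.04. This correction moved the median of all genes in IP over IgG to -0.34. With offsets centred, a setting added after seeing the data, the values were 2.52 and 0.67 for Muc12Ea and 0.51 and 1.35 for Cht6. In IgG over Input the centred setting gave 1.85 for Muc12Ea and -0.84 for Cht6.

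**Figure D4:**
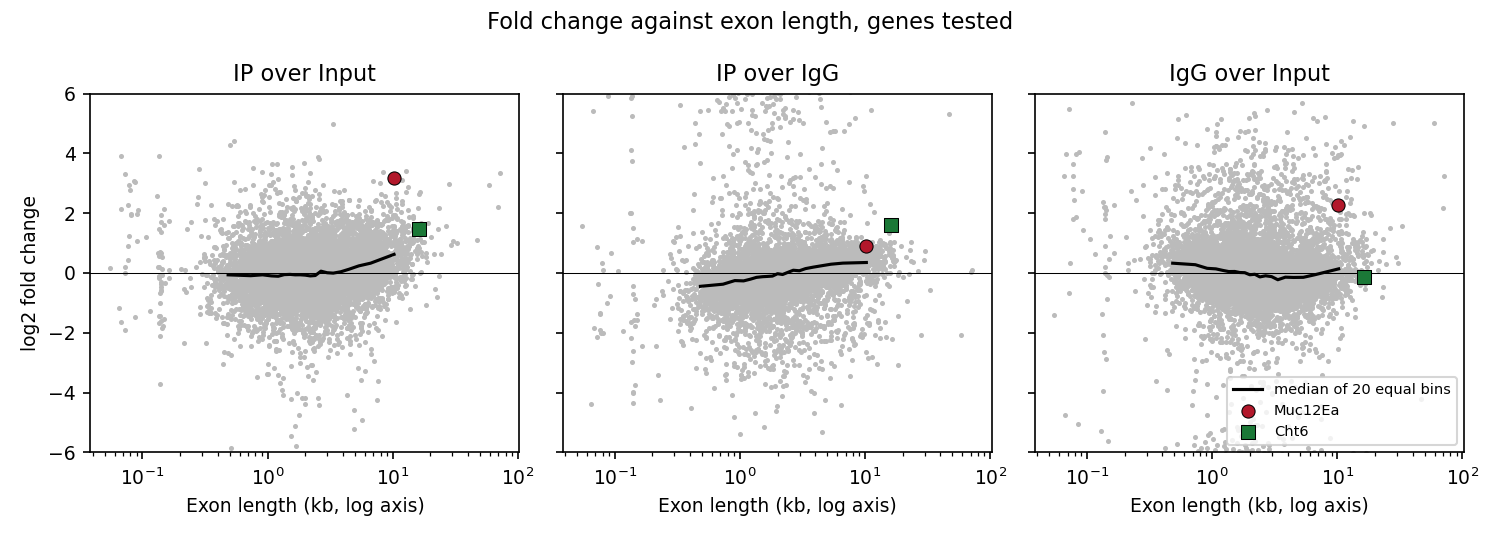
Log2 fold change (vertical axis) against exon length (kb, log axis) for 8574 tested genes in IP over Input, IP over IgG and IgG over Input, with Muc12Ea as a red circle and Cht6 as a green square. The black line is the median of 20 bins with equal numbers of genes, and 9, 413 and 428 genes lie beyond the axis limits of 6 in these comparisons. In both IP comparisons the line climbs with length, and both genes lie above it.

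Both genes were also rich in adenine, and both passed a limit of 30% serine, threonine and proline. Adenine made up 36.0% of the exonic bases of Muc12Ea and 32.3% of those of Cht6, against a median of 27.7%, while GC content was close to the median of 48.9% in both (50.4% and 49.5%). Of the 135 tested genes with at least 30% serine, threonine and proline, 52 were called higher in IP than in Input (38.5%, against 28.7% of all tested), and 7 were called higher in IP than in IgG (5.19%, against 4.21%). In IP over IgG the share was near the background. Only 8 of these genes also had at least 10 kb of exon, the members included. All 8 were called higher in IP than in Input (100%, against 28.7% of all tested and 67.0% of those with at least 10 kb of exon). In IP over IgG 3 were called higher (37.5%, against 4.21% and 28.8%). The 8 hold both members, so these counts are a description. Muc12Ea ranked first among the 8 in IP over Input and Cht6 first in IP over IgG, but both were picked on these contrasts. Of the 64 tested genes with under 50% of their 50-base words unique, 15 were called higher in IP than in Input (23.4%). Muc12Ea, which was picked on this contrast, had the highest fold change among the 64.

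The neighbours of both genes showed other patterns. The nearest gene before Muc12Ea, na, which codes for the sodium leak channel narrow abdomen, ends 318 bases upstream on the same strand and averaged 0.332 ± 0.260 CPM in IP, 2.50 ± 3.40 in IgG and 0.293 ± 0.0538 in Input (SD, n = 3 each). CG9400 shares 78 exonic bases with Muc12Ea on the opposite strand. It averaged 0.773 ± 0.420 CPM in IP and 0.643 ± 0.209 CPM in Input and had no count in any IgG library, which puts IgG at least 7.15-fold below Input (floor of 3 counts per library, edgeR adjusted p = 0.0151). Both lay far below Muc12Ea in every group. The gene after it, lncRNA:CR44963, had no count in any library. Downstream of Cht6, Yp2, which codes for a yolk protein, ends 147 bases away on the opposite strand. It averaged 7603 ± 156 CPM in IP, 8184 ± 44.6 in IgG and 5390 ± 117 in Input, with log2 fold changes of 0.50 ± 0.06 in IP over Input (adjusted p = 4.13e-05) and -0.11 ± 0.05 in IP over IgG (adjusted p = 0.235). Yp2 was thus high in both pulldowns, unlike Cht6. asRNA:CR45185, which shares 521 exonic bases with Cht6 on the opposite strand, and Dna2, the gene before Cht6, were not analysed here. Whether the counting used strand is not given in the sources used here.

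The genes whose levels over the 9 libraries were most like those of Muc12Ea were Sdb, CG12592, poe, CG17724 and CG6191. Likeness was the root mean square difference of log2 CPM after centring each gene on its own Input mean, over 6349 candidates that averaged 10 CPM or more, and it ran from 0.33 to 0.42 for these. For example, poe, the fly counterpart of the ubiquitin ligase UBR4, averaged 1582 ± 57.3 CPM in IP, 1018 ± 95.9 in IgG and 255 ± 21.9 in Input, and CG17724 averaged 129 ± 5.24, 88.5 ± 13.7 and 12.4 ± 1.53 (SD, n = 3 each). Like Muc12Ea, all 5 were high in IgG, with log2 fold changes of 1.99 to 2.83 in IgG over Input. The genes most like Cht6 were kto, FBgn0052226 (not named in the annotation), CG32137, kmr and Kdm5, with differences of 0.25 to 0.35. Of these, kto, a subunit of the Mediator complex that couples factors to RNA polymerase, averaged 150 ± 8.02 CPM in IP, 74.0 ± 24.8 in IgG and 65.3 ± 4.62 in Input. Kdm5, a demethylase of histone H3, averaged 742 ± 11.9, 360 ± 43.7 and 358 ± 3.19. These genes shared the pattern of Cht6, with IgG near Input and IP above both. Cht6 and Muc12Ea themselves differed by 1.76 on this scale. Cht6 was 675th of the 6349 candidates in its likeness to Muc12Ea, while Muc12Ea was only 6041st of 6349 in its likeness to Cht6. These profiles share the same libraries and are a description.

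The other chitinase family genes were called in both directions between IP and Input, at shares near those of all genes tested. The list held 18 genes, of which 16 were in the files and 10 were tested, Cht6 included. In IP over Input 3 of the other 9 were called higher and 2 lower, against 28.7% and 30.6% of all genes tested, with a median log2 fold change of 0.20 against 0.01. The enzyme gene Cht10 was higher by 0.91 ± 0.16 (11.7 ± 1.55 CPM in IP and 6.24 ± 0.545 CPM in Input, adjusted p = 6.98e-04), Idgf4 by 0.67 ± 0.07 (adjusted p = 1.67e-05) and Cht11 by 0.50 ± 0.11 (adjusted p = 0.00288). Idgf2 changed by -0.57 ± 0.11 (adjusted p = 0.00119) and Idgf6 by -0.37 ± 0.05 (adjusted p = 1.63e-04). The Idgf genes code for imaginal disc growth factors, secreted relatives of chitinases that lack the catalytic acid. In IP over IgG none of the 9 was called by edgeR in either direction, against 4.21% higher and 3.41% lower of all genes, and DESeq2 called none either, but 1 was called with all 9 libraries in the fit, 3 with the exon length correction and 4 with that correction and the replicate block. At an unadjusted p under 0.05 there was 1, Idgf2, at -0.74 ± 0.25 (adjusted p = 0.0966). In IgG over Input 2 were called higher, against 10.4%, namely Idgf4 by 0.98 ± 0.14 (adjusted p = 0.00699) and Cht11 by 0.87 ± 0.17 (adjusted p = 0.0150).

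Other mucin genes were mostly near the limit of detection. Of 19 genes in the list, 16 had a count in some library and 7 were tested, Muc12Ea included. In IP over Input 2 of the other 6 were called higher and 1 lower, which for the higher ones is near the 28.7% of all genes tested (30.6% lower), with a median log2 fold change of 1.14 against 0.01, and 5 were called with the replicate number as a block. Mur2B, a mucin-related gene, had the highest mean CPM of the other tested genes of the list in every group. It averaged 1721 ± 517 CPM in IP, 1948 ± 269 in IgG and 882 ± 110 in Input (SD, n = 3 each). Its log2 fold change was 0.96 ± 0.23 in IP over Input (adjusted p = 0.0141), -0.18 ± 0.20 in IP over IgG (adjusted p = 0.657) and 1.14 ± 0.13 in IgG over Input (adjusted p = 0.00366). Mur2B was therefore high in IgG as Muc12Ea was. The difference of Mur2B between IP and IgG did not pass the test, and for Muc12Ea that contrast is a description without a test. Muc4B went the other way, with 135 ± 42.1 CPM in IP, 366 ± 43.8 in IgG and 312 ± 112 in Input, and was lower in IP than in IgG by a log2 fold change of -1.44 ± 0.21 (adjusted p = 0.00407). Mur89F was called higher in IP than in Input at under 1 CPM in both (adjusted p = 0.0439). Muc68Ca had no count in IgG, which puts it at least 3.74-fold below Input (adjusted p = 0.0150).

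**Figure D5:**
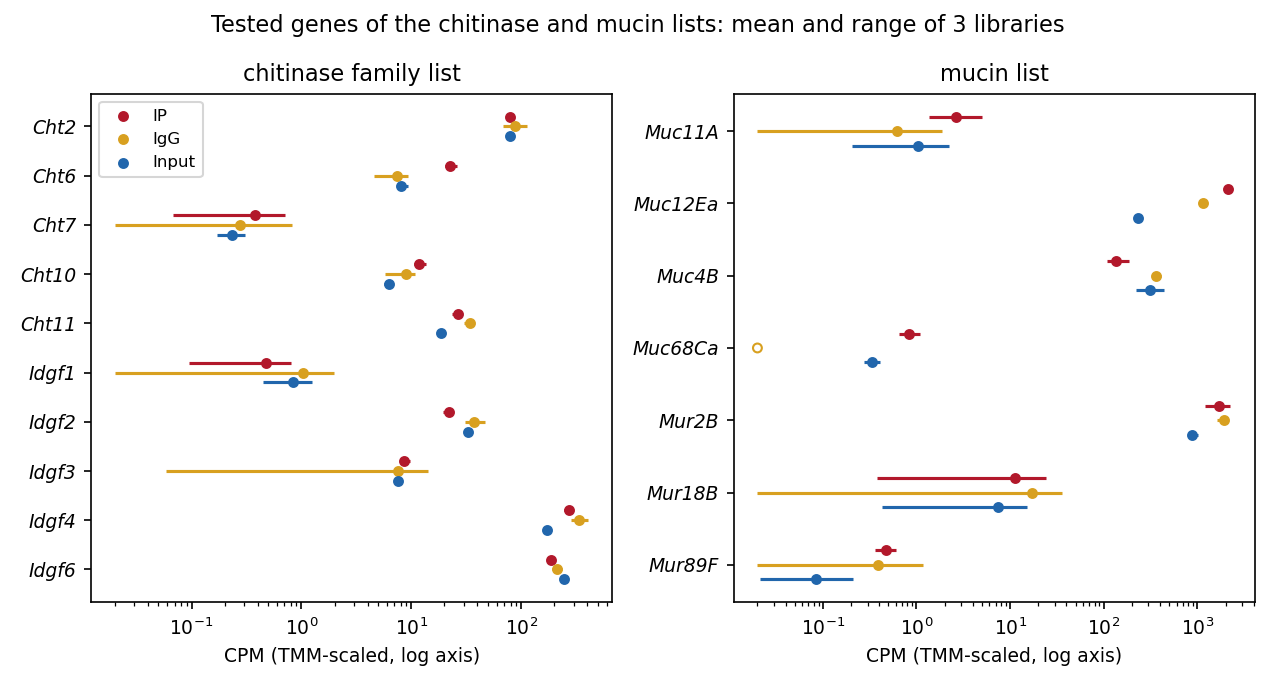
TMM-scaled CPM (log axis) of the tested genes of the chitinase family list (left) and the mucin list (right) in IP, IgG and Input, as the mean (point) and the range of 3 libraries (line). Lines that start at the left edge, at 0.02, reach a library with no count, and the open circle is a group with no count at all. For Cht6 all 3 IP libraries (20.3 to 26.0 CPM) lie above the IgG and Input libraries, and for Muc12Ea the 3 groups lie apart, which are the values that chose them.

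Enzymes that attach mucin-type sugars were called in both directions. In the list of 12 genes, which holds the Pgant transferases that add the first sugar to serine or threonine and the enzymes that extend it, 10 were tested. In IP over Input 5 were called higher and 2 lower, against 28.7% and 30.6% of all genes tested, with a median log2 fold change of 0.35 against 0.01. Pgant35A was higher by 2.47 ± 0.42 (3.35 ± 1.38 CPM in IP and 0.601 ± 0.141 CPM in Input, adjusted p = 6.56e-04), Pgant1 by 0.67 ± 0.06 (adjusted p = 5.51e-06), Pgant6 by 0.65 ± 0.06 (adjusted p = 5.71e-06) and Pgant5 by 0.23 ± 0.06 (adjusted p = 0.00731). Pgant3 changed by -0.54 ± 0.07 (adjusted p = 6.54e-05), and C1GalTA, which adds galactose, by -0.30 ± 0.07 (adjusted p = 0.00256). Pgant6 was the one gene of the list called in IP over IgG (against 4.21% higher and 3.41% lower of all genes), at 0.52 ± 0.13 (adjusted p = 0.0472), a call that was lost without any one of the IP libraries, IgG library 2 or IgG library 3. In IgG over Input Pgant3 (-0.74 ± 0.14, adjusted p = 0.0141) and C1GalTA (-0.62 ± 0.10, adjusted p = 0.0108) were called lower, against 16.5% of all genes, and neither was when any Input library was left out.

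Genes for chitin and the apical matrix, the material that chitinases act on, included several that were higher in both pulldowns than in Input. Of 23 genes in the list 21 were in the files and 16 were tested. In IP over Input 8 were called higher and 2 lower, against 28.7% and 30.6% of all genes tested, with a median log2 fold change of 0.86 against 0.01. The largest were dpy, a giant matrix protein (3.35 ± 0.47, adjusted p = 1.76e-04), ect (2.11 ± 0.59, adjusted p = 0.0115), the chitin synthase kkv (1.75 ± 0.50, adjusted p = 0.0129) and pio, a zona pellucida domain protein (1.57 ± 0.19, adjusted p = 5.47e-05). In Input dpy, ect and kkv averaged only 0.595, 0.339 and 0.661 CPM, and pio 3.78 CPM. The 2 lower ones were mmy, which makes the sugar nucleotide for chitin (-1.25 ± 0.06, adjusted p = 2.61e-07), and the hexosaminidase Hexo1 (-0.59 ± 0.11, adjusted p = 0.00108). In IP over IgG the chitin-binding Gasp was the one gene called (against 3.41% lower of all genes), lower in IP by a log2 fold change of -1.86 ± 0.36 (adjusted p = 0.0164). In IgG over Input 5 were called higher and 3 lower, against 10.4% and 16.5% of all genes, with a median of 0.53 against -0.01. The highest were the chitin deacetylase verm (4.38 ± 0.83, adjusted p = 0.0150, at 0.675 CPM in Input), ect (3.78 ± 0.93, adjusted p = 0.0262), Gasp (2.65 ± 0.32, adjusted p = 0.00370) and the chitin deacetylase serp (2.41 ± 0.68, adjusted p = 0.0411). The lower ones were mmy (-0.99 ± 0.15, adjusted p = 0.00937), knk (-4.65 ± 1.15, adjusted p = 0.0279, at under 1 CPM in both groups) and kkv, which had no count in IgG and so lay at least 7.35-fold below Input (adjusted p = 0.0175). These IgG counts rest on every Input library, since 1 or 2 genes were called when any one was left out, and the call of Gasp in IP over IgG was lost when any IP library was left out.

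Depth was similar in all libraries, at 30533376 to 47080956 counts, so that 3 counts stood for 0.0636 to 0.112 CPM. The IgG libraries were the most scattered and detected 7805 to 7929 IDs, against 9700 to 9985 in IP and 10966 to 11205 in Input. One feature with the malformed ID FBgn000003 took 5.89 to 14.6% of the IgG counts, 0.684 to 1.04% of the IP counts and 0.0113 to 0.0612% of the Input counts. Markers of several cell types that an ovary dissection holds were called higher in both pulldowns than in Input, while the summed germline level overlapped between IgG and Input. The summed level of 9 follicle cell markers was 23964 to 28078 CPM in IgG, 21511 to 22889 CPM in IP and 15041 to 15681 CPM in Input, and against Input 5 were called higher in IgG and 6 in IP. For 11 markers of the ovarian muscle sheath the sum was 1441 to 4447 CPM in IgG, 933 to 1946 CPM in IP and 886 to 1099 CPM in Input. Against Input 10 were called higher in IgG and 3 in IP, the latter near the share of all genes. For 5 hemocyte markers, of which He had no count in any library, the sum was 40.5 to 480 CPM in IgG, 21.3 to 135 CPM in IP and 7.67 to 32.1 CPM in Input. Of the 4 tested, 1 was called higher in each pulldown, which for IP is near the share of all genes. Of 8 germline markers, whose sum was 3461 to 3586 CPM in IgG, 3611 to 3931 CPM in IP and 3502 to 3723 CPM in Input, 1 was called higher and 2 lower in IgG than in Input, and 3 higher and 3 lower in IP than in Input. The sum of 8 trachea and cuticle markers was 35.7 to 78.0 CPM in IgG, 20.8 to 23.1 CPM in IP and 11.4 to 12.4 CPM in Input. Of the 5 tested, 3 were called higher and 1 lower in IgG than in Input, and 5 higher in IP than in Input. The part of these cell types in the levels of Muc12Ea and Cht6 was not tested. The libraries hold RNA of ovary lysate or of pulldowns. These sums therefore compare the RNA recovered and do not measure the share of cells of a type. Gut and fat body markers summed to at most 1.23 and 2.41 CPM in any library.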

How the data were processed

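RNA from 9 ovary libraries (3 IP, 3 IgG and 3 Input) was analysed. The deposited values were unnormalized read counts for 17024 FlyBase IDs. The submitters' processing notes name HISAT2 2.1.0, featureCounts 1.4.6 and the build dm6, and the settings used, strand and treatment of multiply placed reads are not given in the sources used here. RNA was selected for poly(A) tails, fragmented for 13 minutes and made into directional libraries, and counts include PCR copies. Ensembl's BDGP6 annotation named 16647 IDs and left 377 unnamed.

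Each pair of groups was fitted with edgeR 4.0.16 in R 4.3.3 (two-sided quasi-likelihood tests, robust option, TMM factors), with only the 6 libraries of that comparison in the fit. The 8789 genes that passed edgeR's expression filter (minimum count 10) were tested and 8235 were set aside. A gene was called at a Benjamini-Hochberg adjusted p under 0.05 over all genes tested. The standard error came from the quasi-likelihood F statistic. The fits were tested on simulated counts. Counts and medians of the family and pathway lists leave out the 2 members. Those by exon length, composition and unique words include the members that meet the limit. List medians were the same with genes at 0 in a group set to the bound of 3 counts per library.

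The members and gene lists were chosen with earlier results of these data known. Named genes were the members, for each the 5 genes with the most similar profile, the neighbours and overlapping genes, and in each list the called genes with the largest changes, up to 4 each way. Deviations from the group means of same-numbered IP and Input libraries correlated at 0.27, 0.29 and 0.39 across genes. These numbers were therefore taken as pairs, from the data and the shared numbers in the titles. The pairs entered the ratios between same-numbered libraries and some alternative fits, but not the fits described above. The p-values and shares of calls given for IP over Input thus come from unpaired tests. Pairing within the fit gave 5512 calls in that comparison, against 5212 without it. Alternatives were DESeq2 1.42.0, other scaling, other filters, all 9 libraries in 1 fit, the replicate number as a block, a loess correction for exon length (span 0.3), removal of FBgn000003 and leaving out each library.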

Additional observations from a re-analysis of the deposited data

How the results depend on the processing

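Of 102 log2 fold changes of Muc12Ea and Cht6 under the alternatives, 92 kept their side of the threshold or lay within 1 SD, 1 of them with the other sign (Cht6 in IgG over Input, 0.12 without IgG library 1, not called), and 10 moved by more. Correction for exon length gave 2.61 for Muc12Ea in IP over Input (2.61 also with the replicate block), 0.36 in IP over IgG (0.37 with the block) and 0.60 for Cht6 in IP over Input (0.59 with the block). That correction also moved the median of all genes to -0.34 in IP over IgG and 0.36 in IgG over Input, relative to which Muc12Ea was at 0.70 in IP over IgG. With offsets centred, a setting added after seeing the data, the values were 2.52 and 0.67 for Muc12Ea and 0.51 for Cht6. Library totals gave 1.10 for Muc12Ea in IP over IgG, with the median of all genes at 0.22. Muc12Ea was called higher in IgG over Input under every alternative run (1.85 to 2.31), and Cht6 was not called (-0.84 to 0.12). Leaving out 1 library at a time gave 3.11 to 3.20, 0.82 to 0.92 and 2.27 to 2.29 for Muc12Ea in IP over Input, IP over IgG and IgG over Input, and 1.33 to 1.57, 1.33 to 1.78 and -0.33 to 0.12 for Cht6.

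Genes called in IP over Input numbered 5212, and 2778 with all 9 libraries in 1 fit. In IP over IgG 670 were called, against 1193 with library totals, 1376 with DESeq2, 2014 with all 9 libraries, 1201 with the replicate block, 1320 with exon length, 1710 with exon length and block, and 278 with offsets centred. Leaving out 1 library gave 4528 to 5448, 266 to 925 and 442 to 3306 calls in IP over Input, IP over IgG and IgG over Input (2364 in the full fit), the lowest without an IP or an Input library. The share of calls that were higher was 55.2% in IP over IgG, against 86.2% with library totals, 5.15% with exon length and 23.7% with offsets centred, and 38.5% in IgG over Input, against 25.8%, 72.3% and 36.0%, and 49.8% with DESeq2. Same-numbered IP and IgG, and IgG and Input, libraries share only a number (correlations of 0.036 to 0.19 and 0.09 to 0.19), and the block changed no call of the members. With Pearson's correlation in place of the root mean square difference, 1 of the 5 genes named beside Muc12Ea and none of those beside Cht6 was named again. In IP over Input 1 gene of the mucin list was called without IP library 1 or 2 or Input library 1 or 2, with a filter of any count or with offsets centred, and none with exon length. In IgG over Input 1 gene was called in each of the chitinase and mucin lists when any Input library was left out. The causes of these changes were not tested.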
